A study of Mus musculus with 2 samples.

Results

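The 500 widest DNase hotspots of newborn mouse lung were described here. They were chosen by width: on chromosomes 1 to 19 the hotspot intervals of both libraries were merged where they overlapped, the merged intervals that held hotspots of both were kept, and the 500 widest of these were taken. Merging gave 250126 intervals, of which 138342 held hotspots of both libraries, 97540 came from replicate 1 alone and 14244 from replicate 2 alone. The series measured DNase I sensitivity (DNase-seq) in lung tissue of the mouse strain B6NCrl at age 0 day, in 1 group of 2 biological replicates and names no treatment and no other genotype. The labels list separate biosamples under 1 donor entry, record no sex and do not say whether animals were pooled, so the spread between the replicates may be technical. Whole lung is a mixture of cell types, and in such bulk tissue a site open in few cells and a site open weakly in many cannot be told apart. Of 15 markers fixed for lung epithelium, endothelium, mesenchyme and blood, 14 had a transcription start site (TSS) inside a hotspot of both libraries, and Spi1, a blood marker, did not. None of the 15 had a TSS inside a member, beside 2.46% of all protein-coding genes, a share at which a list this short would often hold none.

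DNase I cuts DNA where nucleosomes are displaced or loosened, so dense cuts mark promoters, enhancers and insulators. A hotspot is a stretch in which cuts are denser than in the surrounding DNA, and a peak is a narrow summit of cutting within or near it. Most hotspots hold a lone element, whereas a wide one runs over several neighbouring elements. In many tissues such broad open regions are known at genes for transcription factors and signalling regulators and at strongly transcribed genes.

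The sequences under the strongest peaks show how different the DNA inside these wide hotspots was, and so the strongest replicate 1 peak is printed for 3 of the widest members with a protein-coding TSS, for the 3 widest without one and for Per1, first by the mean rank of its strongest peak over both lists. All are forward-strand bases of GRCm38 (the assembly called mm10), and capitals mark matches, on either strand, to the 14 motifs spelled out further on. The peaks lay at chr5:142821696-142821845 (intergenic, 4109 bp from the nearest Tnrc18 TSS), chr10:37141256-37141405 (Marcks member, in an exon of the long noncoding RNA gene 5930403N24Rik), chr4:95052223-95052365 (peak midpoint 69 bp from the Jun TSS), chr19:5846716-5846865 (Neat1 member, in an intron of the long noncoding RNA gene Frmd8os), chr16:23984316-23984465 (an intron of Bcl6), chr1:88217576-88217725 (inside the Ugt1a gene cluster) and chr11:69095076-69095216 (beside the Per1 TSS). Annotated untranslated bases are not printed, which shortened the Jun and Per1 sequences to 143 and 141 bases and left out the peak of Id2.
Tnrc18: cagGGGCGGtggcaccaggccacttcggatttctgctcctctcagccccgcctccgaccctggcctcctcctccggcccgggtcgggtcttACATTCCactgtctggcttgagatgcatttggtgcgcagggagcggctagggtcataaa
Marcks: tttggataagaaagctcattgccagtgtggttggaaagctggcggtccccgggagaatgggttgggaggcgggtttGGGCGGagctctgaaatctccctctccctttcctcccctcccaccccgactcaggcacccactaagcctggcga
Jun: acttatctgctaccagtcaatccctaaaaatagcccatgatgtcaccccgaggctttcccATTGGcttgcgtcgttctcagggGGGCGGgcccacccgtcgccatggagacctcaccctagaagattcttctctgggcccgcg
Neat1: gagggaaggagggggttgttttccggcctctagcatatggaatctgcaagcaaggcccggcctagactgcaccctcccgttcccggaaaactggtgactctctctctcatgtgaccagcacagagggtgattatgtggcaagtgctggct
Bcl6 intron: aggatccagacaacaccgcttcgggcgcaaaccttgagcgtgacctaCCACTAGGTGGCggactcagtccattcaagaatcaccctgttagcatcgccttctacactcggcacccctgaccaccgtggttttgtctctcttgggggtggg
Ugt1a cluster: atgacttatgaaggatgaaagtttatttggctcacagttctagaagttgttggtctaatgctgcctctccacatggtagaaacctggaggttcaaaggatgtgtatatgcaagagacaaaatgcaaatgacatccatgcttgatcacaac
Per1: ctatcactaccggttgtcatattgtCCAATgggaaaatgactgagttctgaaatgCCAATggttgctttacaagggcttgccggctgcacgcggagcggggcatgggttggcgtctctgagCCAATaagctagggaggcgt
The Jun and Per1 sequences, both next to a TSS, carried CCAAT boxes, 3 of them in Per1, and Jun, Marcks and Tnrc18 each carried a GC box. The Bcl6 intron sequence held a CTCF match, CTCF being the insulator protein that organises chromatin loops. The Neat1 sequence held none of the 14 motifs. The sequence from the Ugt1a cluster held none either, contained 0 CpG and had a GC content of 40%, against 53.2% to 64% in the other 6.

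The members were 2789 to 9294 bp wide with a median of 3237.5 bp, a description of the choice and not a result. The median over all 138342 hotspots of both libraries was 361 bp, and that of the next 500 by width was 2550.5 bp. The widths ran on without a break at the limit. Among the last members were the promoter hotspots of Wdr26 and Magi1, both 2789 bp, and among the first intervals outside were those of Caprin1 (2787 bp) and Tnrc6c (2785 bp). Junb, partner gene of Jun in the AP-1 factor family, missed the limit at 2783 bp (named after its width was seen). In all, the members covered 1740375 bp and contained 2.06% of the hotspot bases of replicate 1 and 2.72% of those of replicate 2.

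**Figure D1:**
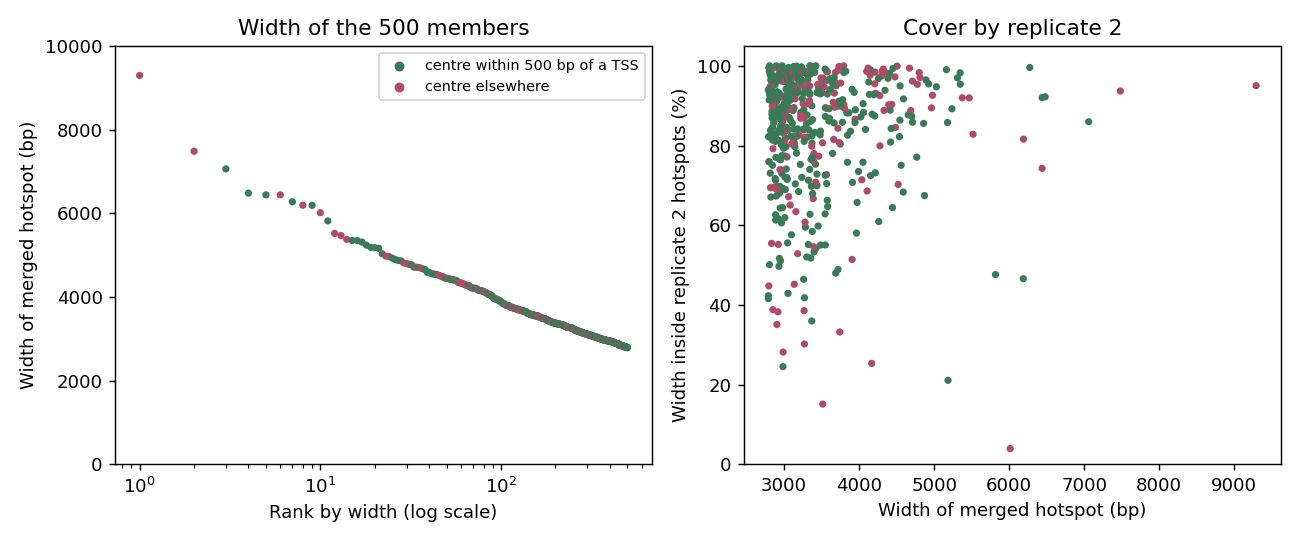
Width of each of the 500 members against its rank by width (log axis), and the share of each member's width inside replicate 2 hotspots against its width; each point is a member, coloured by whether its centre lay within 500 bp of a TSS. Widths ran smoothly from 9294 to 2789 bp, and the share inside replicate 2 hotspots ranged from 3.92% to 100%.

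The members lay mostly over gene starts. A TSS of a protein-coding gene fell inside 450 of the 500 (90%), against 11.3% of all hotspots of both libraries and 92.0% of the next 500 by width. Since a wider interval holds more TSSs by its length alone, the place of the centre is given as well. A place within 500 bp of a TSS of any annotated gene type is called a promoter here. The centre lay at a promoter in 352 members (70.4%, exact binomial 95% interval 66.19% to 74.37%, counting error only), against 15.1% of all hotspots of both. Of the other members, 80 had their centre in an intron, 36 in intergenic DNA and 32 in an exon. The strongest replicate 1 peak lay at a promoter in 373 members (74.6%), against 15.0% of all hotspots of both.

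At the top of the list, width and the place of the centre did not run in parallel. The share with the centre at a promoter was highest among ranks 1001 to 2000 (85.5%) and in the 500 just below the members (83.2%), and it was 76.8% in ranks 251 to 500, 66.7% in ranks 101 to 250, 60% in ranks 51 to 100, 62.5% in ranks 11 to 50 and 50% in the 10 widest. Below the top it fell from 80.7% in ranks 2001 to 5000 to 7.45% in the narrowest class. A promoter of fixed length is a smaller part of a wider interval, and its part in these shares was not tested. The share that held a protein-coding TSS showed no such steady fall. It was 92% in the next 500, 88.4% in ranks 251 to 500 and 92.7% in ranks 101 to 250. In ranks 51 to 100 it was 88%, in ranks 11 to 50 97.5% and in the 10 widest 70%. The place of the strongest peak, which does not depend on where the middle falls, followed a course like that of the centre. It was at a promoter in 80.8% of ranks 251 to 500 and 83.6% of the next 500. The score of that peak was nearly level over the same ranks: its median was 132.5 to 134.5 in replicate 1 and 116 to 118.5 in replicate 2 in every class from the 10 widest to rank 1000. The score is a whole number that the authors give to each peak and what it measures is not given in the sources used here.

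**Figure D2:**
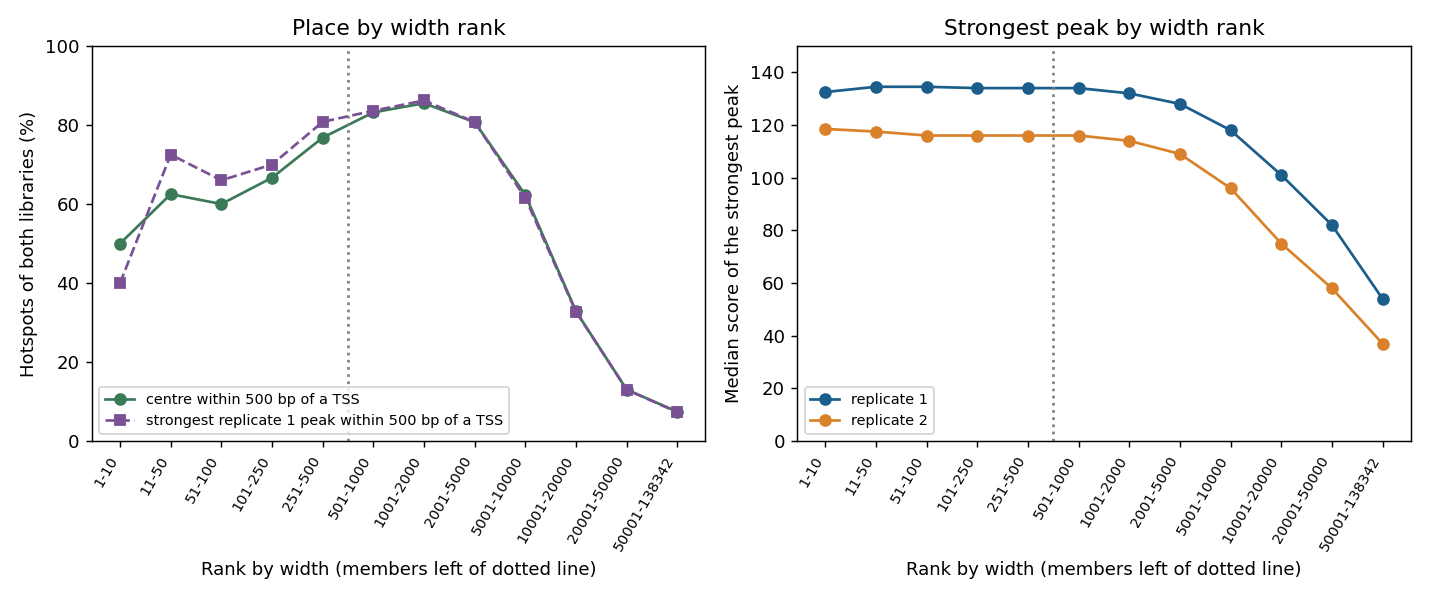
Place and strength of hotspots of both libraries by class of width rank, with the members left of the dotted line. The left panel gives the percentage with the centre, or the strongest replicate 1 peak, within 500 bp of a TSS, and the right panel the median score of the strongest peak in each replicate; promoter place peaked at 85.5% in ranks 1001 to 2000, while the median strongest score stayed between 132.5 and 134.5 (replicate 1) in the 10 widest through rank 1000.

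Around the gene start, the members reached further into the gene than away from it. In the 340 members with the 5′ end of exactly 1 protein-coding gene, the median extent was 1227.5 bp upstream and 2111.5 bp downstream, and 253 (74.4%) extended further downstream. The same held for 66.4% of the 10279 hotspots of both with 1 such 5′ end and for 77.8% of the 342 among the next 500, so this asymmetry was not particular to the members. Tgif1, a homeodomain repressor gene of TGF-beta signalling, had 5910 bp of its 6275 bp member downstream. Tnrc18 was the opposite case, with 6434 bp upstream and 2859 bp downstream. In 7 of the 340 members (2.06%) the whole gene lay inside, namely Jun, Crlf2, Cited2, Id3, Ier2, Gpx1 and Jund, all of them genes of at most 4285 bp. The share was 0.58% of the 342 among the next 500 and 0.19% of the 10279. A wider interval can hold a longer gene, so this contrast follows in part from the choice by width. Id2 was covered over 94.7% of its 3342 bp and Hes1, a Notch target gene, over 91.1% of its 3413 bp.

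The members held TSSs of 512 different protein-coding genes, which is 2.46% of the 20780 in the annotation used, while 66.9% had a TSS in some hotspot of both libraries. There were 388 members with 1 such gene, 60 with 2, 2 with more and 50 with none. In 54 of the 60 pairs the genes ran on opposite strands. The same share was not counted in other hotspots, so it cannot be called particular to the members. The median length of the 512 genes was 30250 bp, against 25319 bp over all genes with a TSS in a hotspot of both.

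The 10 widest members are given with their genes. Tnrc18 (chr5:142814803-142824096) came first at 9294 bp with 18 peaks in replicate 1 and 17 in replicate 2. Its peaks scored 55 to 132 in replicate 1 and 41 to 115 in replicate 2, and its centre was intergenic, 1788 bp from the nearest Tnrc18 TSS. Id2 (chr12:25093976-25101458), which encodes a helix-loop-helix protein that blocks other such factors from binding DNA, was 7483 bp wide with 15 and 16 peaks. There a peak beside a TSS inside the gene scored 144 and 122 and a further one upstream of the gene 126 and 110, and the remaining peaks did not exceed 102 and 67. Neat1 (chr19:5840831-5847891), the noncoding RNA that builds paraspeckles, had 12 and 13 peaks over 7061 bp with strongest scores of 144 and 138.

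Marcks, the gene of a membrane and actin-binding substrate of protein kinase C, had 14 and 13 peaks over 6481 bp (strongest 133 and 126). Jun, an AP-1 subunit gene, had 12 and 12 over 6440 bp (139 and 122). Also 6440 bp wide was a member inside a Bcl6 intron (13 and 12 peaks, strongest 126 and 105) that held no TSS at all. Bcl6, a transcriptional repressor gene, had its own TSS in a separate hotspot of 2120 bp, rank 1698. Next came Tgif1 (9 and 10 peaks), Bbc3, a pro-apoptotic BH3-only gene, with 6192 bp and 12 and 13 peaks, Irf2bp2, a corepressor gene, with 6189 bp and 9 and 7 peaks, and a 6014 bp interval in the Ugt1a cluster described further on.

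**Figure D3:**
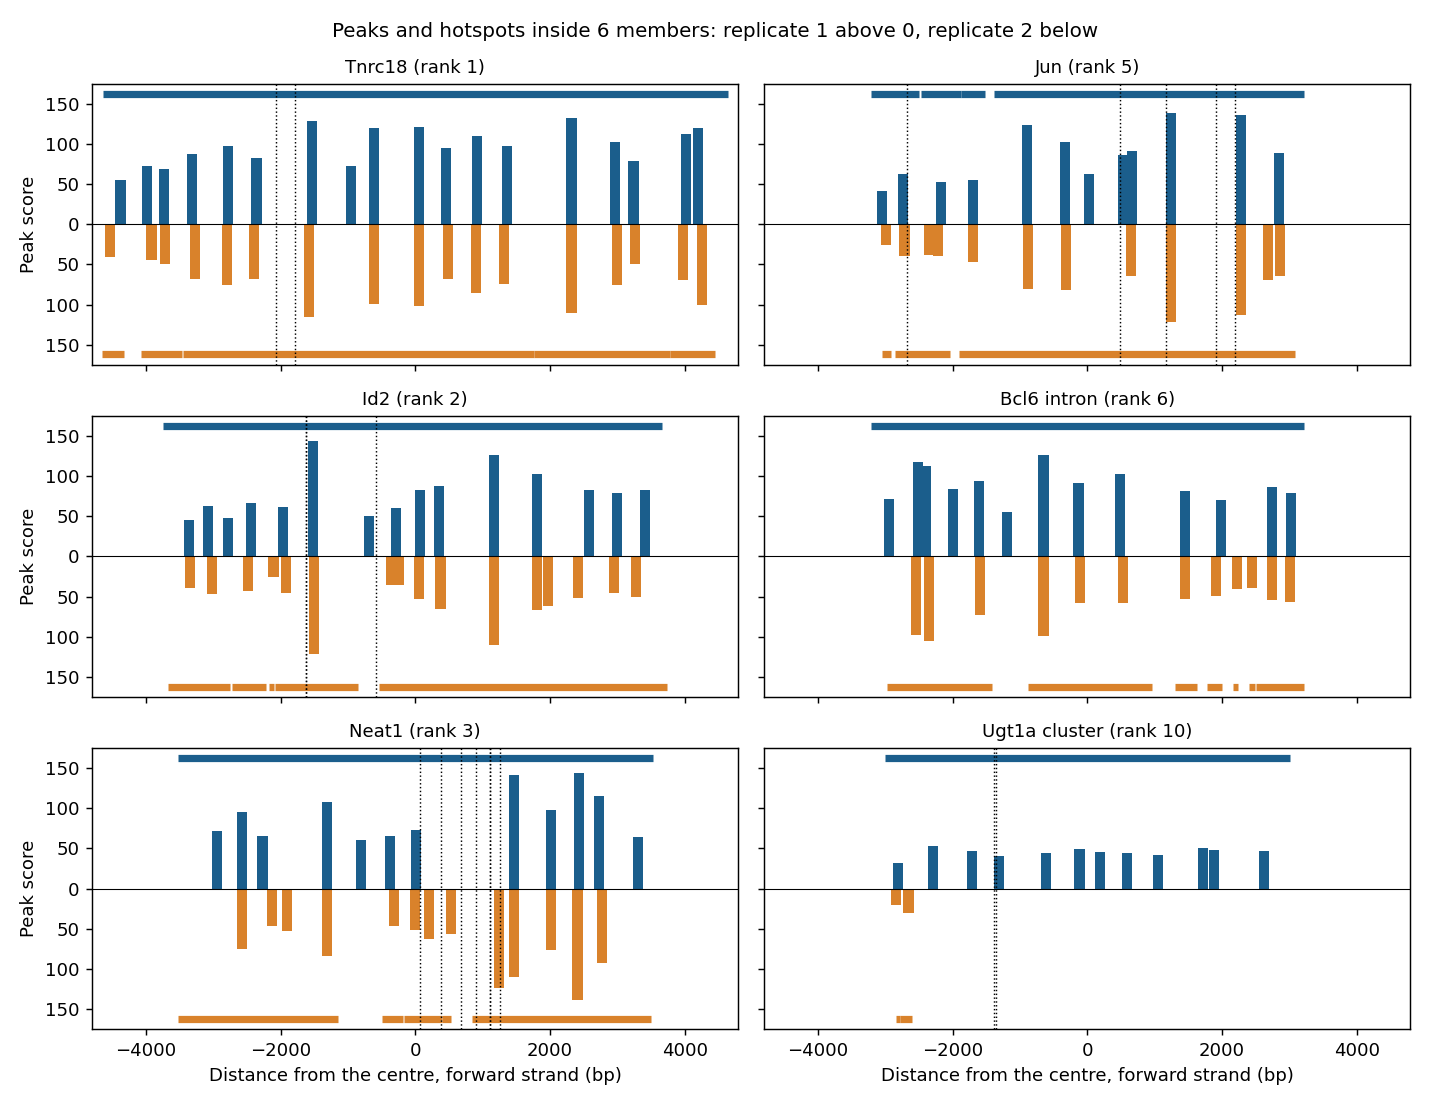
Peaks (bars, height is the authors' score, width 150 bp) and hotspots (horizontal lines at the outer edges) inside 6 members, by distance from the centre in bp, with replicate 1 above 0 and replicate 2 below; dotted lines mark annotated TSSs. The numbers of peaks in replicates 1 and 2 were 18 and 17 at Tnrc18, 15 and 16 at Id2, 12 and 12 at Jun and 13 and 12 in the Bcl6 intron, while the Ugt1a interval held 12 replicate 1 peaks, none above 53, and 2 replicate 2 peaks.

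Ranks 11 to 20 were Crlf2, a cytokine receptor subunit gene (5818 bp), Cpt1a, which controls fatty acid entry into mitochondria (5519 bp), Ptprg, a receptor phosphatase gene (5468 bp), Ugt1a1 (5376 bp), the pair Brd2 and H2-DMa (5348 bp), Myc (5347 bp), Sgk1, a kinase gene induced by glucocorticoids (5311 bp), Trim8 (5237 bp), Nr2f2, an orphan nuclear receptor gene (5185 bp), and Mllt3, a gene of transcription elongation (5179 bp). Ptprg, with 13 and 14 peaks, was among the 5 with the most peaks in replicate 1, after Tnrc18, Id2 and Marcks and level with the Bcl6 intron. Except at Ugt1a1, the strongest peak of these members scored at least 118 in replicate 1 and 91 in replicate 2.

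The genes were grouped by 12 lists, chosen with earlier results of these data known, which already named Id2, Neat1, Marcks and Bcl6. A gene was counted where any of its TSSs lay inside a member. The lists differed widely in their share: it was 48.3% and 46.4% in the top 2 lists and 0% in 3 lists, beside 2.46% of all protein-coding genes. Of all genes with a TSS in a hotspot of both libraries, 13897 in number, the members held 512.

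Immediate early genes, which cells switch on within minutes of a stimulus without new protein synthesis, were in members for 14 of 29 matched. They included 4 AP-1 subunit genes: Jun (rank 5), Fos (3973 bp), Fosl2 (3611 bp) and Jund (3131 bp). Others were the growth regulator Myc (rank 16), the stress factor Atf3 (4964 bp, rank 24), Klf4 (4892 bp, rank 26), Zfp36, which destabilises mRNAs of inflammation (4688 bp), the nuclear receptor Nr4a3 (4546 bp), Klf10, Csrnp1, Ier2, Klf6 and Dusp1. Strongest peaks of the 14 scored 127 (Klf4) to 146 (Klf10) in replicate 1 and 108 (Klf4) to 133 (Zfp36, Jund) in replicate 2. All 29 had a TSS in a hotspot of both, among them Btg2 (2496 bp, rank 848) and Ccn1 (2056 bp, rank 1907), which were no members. Without replicate 1, that is in the 500 widest hotspots of replicate 2 alone, 9 of the 29 were counted.

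Inhibitors that signalling pathways induce against themselves were in members for 13 of 28. They came from several pathways. Spry2 (4768 bp), Spry4 (3398 bp), Spred2 (3146 bp), Dusp4 (3791 bp) and Dusp6 (3180 bp) restrain receptor tyrosine kinase and MAP kinase signals. Id2 and Id3 (3965 bp) answer BMP signals, Ptch1 (4413 bp) is the Hedgehog receptor and target, Axin2 (2881 bp) a Wnt target, Cish (3354 bp) and Socs2 (3250 bp) limit cytokine receptors, Tnfaip3 (3185 bp) limits NF-kappaB, and Dusp1 (3342 bp) was also counted as an immediate early gene. Bambi (2366 bp) and Dusp5 (2056 bp) had narrower hotspots. This count depended on replicate 1: in the 500 widest hotspots of replicate 2 alone it was 5, and in those of replicate 1 alone 13.

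Among glucocorticoid response and clock output genes 6 of 22 were in members, namely Sgk1, Cebpd (4450 bp), Nfil3 (4129 bp), Bhlhe40 (4120 bp), Per1 (3796 bp) and Klf9 (3241 bp). The TSSs of Bcl6 (2120 bp) and Bhlhe41 (1809 bp) were in narrower hotspots. Nuclear long noncoding RNA genes were in members for 5 of 17, against 1.43% of all 9414 long noncoding RNA genes: Neat1, Malat1 (4872 bp), the miR-22 host Mir22hg (4537 bp), Dleu2 (3380 bp) and Mir17hg (3269 bp). Malat1 had weaker summits than Neat1, the strongest at 103 and 84 against 144 and 138. Neat1 and Malat1 are neighbours on chromosome 19 and not independent.

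**Figure D4:**
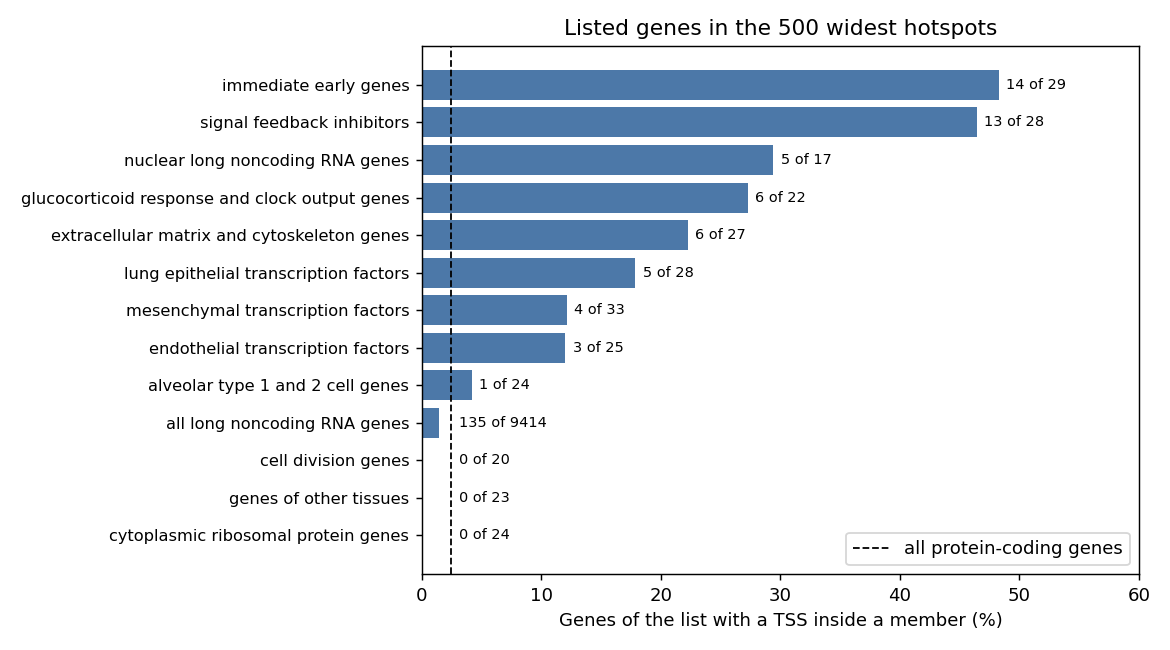
Percentage of the matched genes of each list that had a TSS inside a member, with the counts at the bars; the dashed line is the 2.46% of all protein-coding genes. Immediate early genes (14 of 29) and signal feedback inhibitors (13 of 28) had the longest bars, and 3 lists had none.

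Lists of lung cell identity genes had smaller shares. Of 28 epithelial transcription factor genes, 5 were in members: Id2, the forkhead genes Foxa1 (4506 bp), Foxp1 (3807 bp) and Foxp2 (3022 bp), and Nfib (3387 bp). Foxa1 held 11 and 11 peaks, but none above 110 and 85. Of 33 mesenchymal factor genes 4 were in members, Nr2f2, Mycn (5030 bp), Meis1 (3134 bp) and Gli3 (3027 bp), and of 25 endothelial factor genes 3, Nr2f2, Klf4 and Foxo1 (3270 bp). Vegfa (2921 bp) was the only one of 24 alveolar type 1 and 2 cell genes. The matrix and cytoskeleton list had 6 of 27, namely Marcks, Myh9 (3741 bp), Actb (3453 bp), Vim (3379 bp), Actg1 (3088 bp) and Lox (2879 bp). The actin-binding gene Cnn2 lay in a narrower hotspot of 2657 bp and the collagen gene Col1a1 in one of 1442 bp.

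The 3 lists without a member differed in another respect. All 24 ribosomal protein genes and all 20 cell division genes had a TSS in a hotspot of both libraries, yet none in a member, and at a share of 2.46% fewer than 1 gene of lists this size would be in one. Rpl10a had strongest peaks of 134 and 110 in a hotspot of 1091 bp, and Rpl13 had 144 and 124 in one of 917 bp. The mitotic kinase genes Aurka (128 and 106, 908 bp) and Aurkb (125 and 107, 805 bp) were likewise in narrower hotspots. Of 23 genes of liver, pancreas, skeletal muscle and neurons, 5 were in a hotspot of both and 0 in a member.

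Gene families were also picked by symbol after the data were seen. The Klf zinc finger family had 7 of 16 genes in members (Klf4, Klf6, Klf9, Klf10, Klf12, Klf13 and Klf16), the Fox family 5 of 41 and the Sox family 3 of 18 (Sox4 at 4800 bp, Sox11 and Sox12). The large group of Zfp zinc finger genes had 11 of 358 (3.07%), near the share of all genes. The Hox family had 0 of 39, near the share of all genes too, and 16 of them had a TSS in a hotspot of both.

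The 50 members with no protein-coding TSS included 29 with no annotated TSS of any kind (5.8% of members). This share was 5% in the next 500 by width and 87.2% over all hotspots of both. In 22 of the 29 (4.4% of members) the nearer edge lay more than 1000 bp from any TSS. That share was 4.6% in the next 500 and 78.8% over all hotspots of both. In all 29 members the centre lay at least 1477 bp from any TSS. After the Bcl6 intron, the widest of the 29 lay 555409 bp from the nearest protein-coding gene start, that of Zfp608 (4208 bp wide, 8 and 10 peaks, strongest 76 and 60). The next lay at chr16:30185474-30189579, 79972 bp from the Cpn2 start (4106 bp, 129 and 108), and at chr10:80158198-80162233, 5769 bp from Cirbp, a cold-inducible RNA-binding protein gene (4036 bp, 139 and 125). The fifth was centred 6310 bp from the Foxa1 start and held 11 and 10 peaks, none above 68 and 45. Members without a TSS had median strongest scores of 128 and 105, against 134 and 117 in members with a protein-coding TSS. Their median CpG ratio, the observed over expected number of CpG dinucleotides, was 0.421 against 0.703.

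The median distance from a member to the nearest other was 1128266 bp. Within 100 kb of another lay 63 members, and within 10 kb lay 24, in 12 pairs. How these values compare with a random scatter of as many intervals was not tested. At Foxa1 the member with the TSS and the one described above were 1407 bp apart. Other such pairs were beside Per1 (gap of 68 bp), Zfp503 (4 bp), Sin3a (12 bp), Dusp1 (1359 bp) and Klf9 (2906 bp). Short gaps of this kind mean that a slightly looser joining of hotspots would have given wider intervals. By chromosome, members numbered from 16 on chromosome 18 to 51 on chromosome 11, or 0.532% of that chromosome's hotspots of both, and the share was highest on chromosome 17 (0.590%) and lowest on chromosome 2 (0.218%).

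Each member held several peaks. Replicate 1 had 3101 peaks with midpoints in members (1.15% of its list) and replicate 2 had 3045 (1.66%). The median number was 6 in both replicates, with ranges of 2 to 18 and 1 to 17. Per kb this was 1.77 and 1.76 peaks at the median member. Neighbouring peaks lay a median of 500 and 480 bp apart, the same as in the next 500 by width, against 400 and 380 bp in all hotspots of both. A narrow hotspot leaves no room for a long gap, so the last contrast follows in part from the choice by width. The number of peaks followed width, with a median of 12 and 12.5 in the 10 widest and 5 and 5 in ranks 251 to 500, as it must where spacing is even.

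The strongest peak of a member scored a median of 134 in replicate 1 (range 47 to 149) and 116 in replicate 2 (range 30 to 141). Over all hotspots of both these medians were 66 and 46, and over the next 500 they were 134 and 116, so the members did not stand above the hotspots just narrower than they were. The median member's weakest peak scored 55 and 39, against 55 and 42 in the next 500 and 61 and 42 in all hotspots of both. The median hotspot of both held 1 peak and the median member 6. The lowest of more peaks is lower, and the highest higher, by number alone. Strong and weak summits lay together in members, as in the next 500. The highest, by mean rank over both lists, were at Per1 (148 and 139), Zbtb20, a zinc finger repressor gene (149 and 137), Stag1, a cohesin subunit gene (146 and 140), the trio Lrch4, Fbxo24 and Gm20605 (146 and 138), and the pair Arid4b and Ggps1 (148 and 135). These were not the widest members: Per1 held 4 and 4 peaks in 3796 bp and ranked 108, and the other 4 ranked 274 to 382.

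The strong peaks clustered at the gene start. In members with 1 protein-coding 5′ end, peaks in the 250 bp upstream of it had median scores of 128 (n = 228 peaks) and 109.5 (n = 228), and those in the first 250 bp downstream 118 (n = 107) and 93 (n = 108). From 250 to 500 bp downstream the medians were 88.5 and 57.5, and beyond 2000 bp they were 69.5 and 52. Upstream the decline was less even: peaks 500 to 1000 bp away scored 88 and 65.5, and those more than 2000 bp away 91 and 67 (44 and 41 peaks). Over all members, 49.0% and 49.6% of peaks lay within 500 bp of a TSS (medians 105 and 82) and 28.2% and 27.3% beyond 1000 bp (79 and 58). Even the distal peaks of members exceeded those of all hotspots of both, whose medians beyond 1000 bp were 62 and 42. In the next 500 by width these medians were 75 and 55, so most of this excess was not particular to the members.

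**Figure D5:**
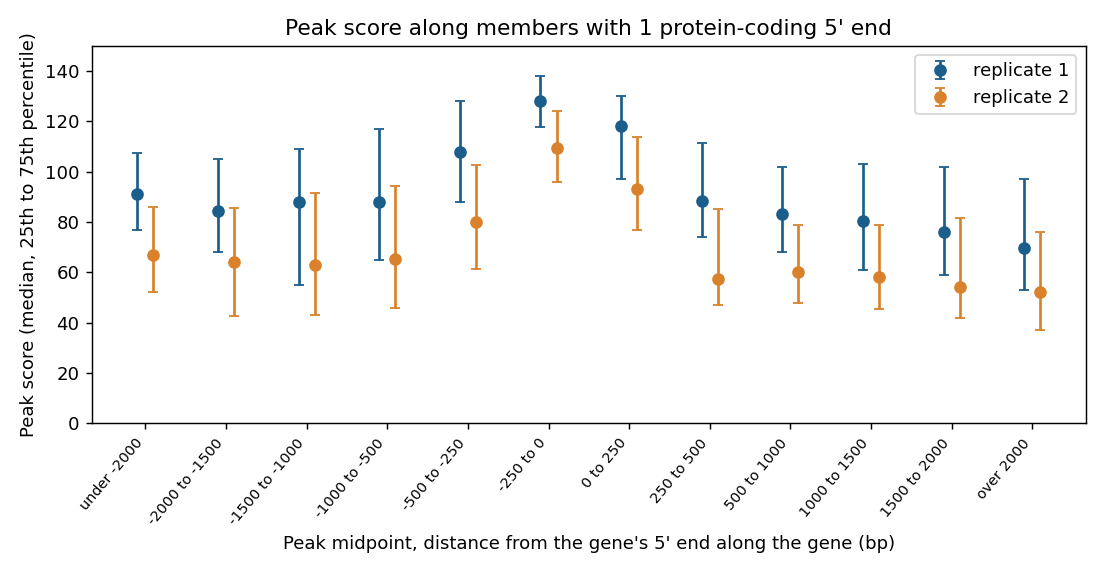
Scores of peaks inside the 340 members with 1 protein-coding 5′ end, by distance of the peak midpoint from that end along the gene; points are medians over peaks and bars run from the 25th to the 75th percentile, for each replicate. Scores were highest in the 250 bp upstream (128 and 109.5) and lowest beyond 2000 bp downstream (69.5 and 52) in both replicates.

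The replicates were compared by score, number of peaks and width. Across the 500 members the strongest scores correlated with Pearson's r = 0.907 and Spearman's rho = 0.887, the median peak scores with 0.684 and 0.692, and the numbers of peaks with 0.720 and 0.617. These are descriptions over regions that share 2 libraries, and regions are not replicates. Of the peaks inside members, 83.3% in replicate 1 and 85.3% in replicate 2 overlapped a peak of the other replicate. The shares were 94% and 95% over all hotspots of both, but 84.1% and 85.5% in the next 500. The lower shares were thus not particular to the members. More peaks were listed in replicate 1 in 183 members and in replicate 2 in 154, with equal numbers in 163.

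Width came mainly from replicate 1. Its hotspots covered a median of 100% of a member (lowest 79.7%), while those of replicate 2 covered 88.8% (lowest 3.92%). The replicate 2 median was 87.8% in the next 500 by width and 79.6% over all hotspots of both, with 100% for replicate 1 in each. Lower replicate 2 cover was thus not particular to the members. In 387 members replicate 1 had a lone hotspot, in 108 members replicate 2 did, and in 347 replicate 2 had more hotspots than replicate 1. Replicate 2 had a lone hotspot in 21.6% of members, 34.4% of the next 500 and 91.9% of all hotspots of both. It had more hotspots than replicate 1 in 69.4%, 58.8% and 7.41%. The widest hotspot of replicate 2 measured 6249 bp, against 9290 bp in replicate 1. Replicate 2 also had the shorter list, 166236 hotspots against 239660, and depth was not given, so the part of depth in these widths was not tested. At Tnrc18 1 replicate 1 hotspot of 9290 bp stood beside 5 in replicate 2, the widest 5210 bp. At Marcks and Tgif1 each replicate had 1 hotspot.

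Replicate 2 covered less than 50% of the width in 3.6% of the next 500 by width and 13.5% of all hotspots of both. Of the members, 25 (5%) had less than 50% covered. Irf2bp2 (46.6%) and Crlf2 (47.6%) were among them, as were Nr2f2 (21.1%, 8 and 3 peaks), Mecom (25.3%, 6 and 4 peaks), Myh9 (33.2%, 5 and 2 peaks) and Cyren (24.5%, 5 and 1 peaks), the last and Mecom named after their values were seen. The strongest peaks at Nr2f2 scored 129 and 108, and those at Myh9 143 and 126. The lowest cover, 3.92%, was in the Ugt1a interval, where the strongest replicate 1 peak, printed above, had no overlapping peak in replicate 2. The authors' −log10 q-value of hotspots stood at its ceiling of 100 for 567 of 655 replicate 1 hotspots in members (86.6%) and 779 of 1366 in replicate 2 (57%). Over the full lists, 39.5% of replicate 1 hotspots and 36.2% of replicate 2 hotspots stood at the ceiling, so the replicates were closer there than in members. At least 1 hotspot at the ceiling was present in 499 members in replicate 1 and 497 in replicate 2.

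The DNA of members was rich in G, C and CpG. Their median GC content was 57.3% and the median CpG ratio 0.695, against 48.2% and 0.240 over all hotspots of both and 58.2% and 0.736 in the next 500. Both a GC content over 50% and a CpG ratio over 0.6, the usual marks of a CpG island, were met by 349 members (69.8%), by 78% of the next 500 and by 8.76% of all hotspots of both. Neat1 (0.337), Malat1 (0.269) and Tagln2 (0.367, named after its value was seen), at ranks 3, 27 and 28, were wide promoter hotspots with low CpG ratios. The centre of the Neat1 member was at a promoter through a TSS of another annotated gene, Gm27533, 76 bp away. The nearest Neat1 TSS was 898 bp from that centre.

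Peak sequences were searched on both strands for AP-1 (TGANTCA), the cyclic AMP response element (CRE, TGACGTCA), ETS (CCGGAAG), the GC box (GGGCGG), KLF (CCACACCC), NRF1 (GCGCATGCG), FOX (TGTTTAC), TEAD (ACATTCC), C/EBP (TTGCNNAA), NKX2 (CCACTTNA), the CCAAT box (CCAAT), the E-box (CACGTG), YY1 (AAGATGGCG) and the CTCF consensus. A GC box was present in 33.9% of replicate 1 peaks in members and in 12% of those in other hotspots of both. For AP-1 the shares were 3.90% and 8.93%, for C/EBP 5.58% and 10.6%, for CTCF 0.548% and 3.62%, and for the CCAAT box shown above at Jun and Per1 18.4% and 17.4%. Peaks in members had a median GC content of 59.3% against 50%, and its part in these shares was not tested.

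The shares depended on place, and for some motifs the order turned with it. Beyond 1000 bp from a TSS, replicate 1 peaks in members held the GC box in 19.6% and other peaks in 5.51%, AP-1 in 5.84% and 10.2%, and CTCF in 1.03% and 4.31%. Within 500 bp of a TSS the GC box shares were closer, 45.3% and 37.9%. ETS matches, typical of housekeeping promoters, were there in 4.34% of member peaks and 7.73% of other peaks, whereas over all peaks the shares were 3.26% and 2.67%. NRF1 turned in the same way, with 0.592% and 1.23% near a TSS and 0.387% and 0.318% over all peaks. Its shares in members were small parts of 1521 and 3101 peaks and rested on few matches. CRE, YY1 and the E-box turned likewise, while FOX turned the opposite way. Replicate 2 gave 4.77% and 7.70% for ETS near a TSS and 0.963% and 4.41% for distal CTCF. Letters matching a motif describe the DNA and do not show that the factor was bound.

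A block on chromosome 1 stood apart. The 3 members with the lowest strongest peaks over both lists, at ranks 10, 14 and 284, all lay between 88211563 and 88303180 on that chromosome, over the Ugt1a cluster, whose enzymes attach glucuronic acid to bilirubin and drugs, and in an intron of the nearby cold-sensing channel gene Trpm8. Rank 10 had 12 peaks in replicate 1 and 2 in replicate 2, the strongest 53 and 30. Rank 14, over Ugt1a1 and 2 bp away, had 12 and 13 with the strongest at 52 and 41, and the Trpm8 intron had 8 and 9 with 47 and 41. Peaks there were many and low. The printed sequence with 0 CpG lies under the strongest replicate 1 peak of rank 10. Their CpG ratios were 0.145, 0.177 and 0.176. Of 1954 windows of 100 kb on chromosome 1, only 5 in replicate 1 and 9 in replicate 2 had more of their length in hotspots than the window starting at 88200001, with 17.3% and 9.71% against chromosome medians of 1.83% and 1.16%. Next lowest were the Foxa1 neighbour (68 and 45) and Pcdh7, a protocadherin gene (68 and 66).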

How the data were processed

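DNase-seq of whole newborn lung was used, in 2 biological replicates numbered as in the descriptions. Per the labels, the authors mapped to mm10. Which aligner and callers they used, in which versions and at what depth, is not given in the sources used here. Deposited peaks carry a score set by the authors, a whole number from 2 to 150 and 2 to 148 on chromosomes 1 to 19, and it served here to rank the peaks of a list. The deposited hotspots carry a −log10 q-value, capped at 100. After removal of 25 and 22 duplicate peak intervals, 269825 and 183814 peaks remained, beside 239660 and 166236 hotspots.

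Hotspots of both libraries were merged where they overlapped by at least 1 bp, and the 500 widest with hotspots of both were taken. Since width chose them, no test was made. A peak was inside a member if its midpoint was. TSSs came from GENCODE M21, sequence from RefSeq's GRCm38.p6, and no interval ended past a chromosome end. Named were the 20 widest members, the 5 widest without a TSS, the 5 with the most replicate 1 peaks, the 5 strongest, 3 on each side of the width limit, and per list up to 4 genes in the widest members, extended to all in members after the data were seen, and the first 2 by alphabet in narrower hotspots, printed for 6 of the 12 lists. A few items this rule picks are left out of the text. Members, lists and motifs were chosen with earlier results of these data known. The merging, ranking and peak assignment were tested on simulated intervals. Python 3.11.15 was used.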

Additional observations from a re-analysis of the deposited data

Results flagged for a closer look

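Chromosome X was not used for the members. It had 12 merged hotspots of both libraries, of 3419 there, that were at least as wide as the narrowest member, and they draw attention only because they lie outside the data described. The widest measured 5524 bp. Genes with a TSS inside them included Mid1, Yipf6, Rps6ka3, Bcor, Lonrf3, Usp9x, Bcorl1, Cask, Hcfc1, Rbbp7 and Tsc22d3, the last a glucocorticoid-induced leucine zipper gene. Chromosome Y had 0 such hotspots of 39.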

How the results depend on the processing

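No paired analysis was possible because there is only 1 group. Of 17 alternatives, those that change the members or the peaks left the median strongest scores at 132 to 136 and 115 to 120, except where the median peak score replaced the highest (92.2 and 69.5). Joining hotspots up to 150 bp apart gave a median width of 3868 bp, 58.6% of centres at promoters and medians of 8 and 7 peaks, and 308 of the 500 intervals were still among the widest. With the 250 widest these were 64% and 7 and 7 peaks, and with the 1000 widest 76.8% and 5 and 5 peaks. Taking the widest hotspots of either replicate alone, without replicate 1 or without replicate 2, gave median widths of 2429 to 3110 bp, a protein-coding TSS in 90.4% to 93.2%, the centre at a promoter in 72.2% to 81.4%, medians of 4 to 6 replicate 1 peaks and 5 to 6 replicate 2 peaks, and 9 to 12 immediate early genes, and shared 246 to 432 intervals with the 500. Where a gene counted by its 5′ end alone, 80% held a protein-coding TSS. Promoters of 250 bp and 1000 bp on each side gave 47.2% and 88.8% of centres at promoters. The alternative without the 3 members of the chromosome 1 block, chosen after seeing the data, moved no value by more than the spread between replicates or, for shares, its 95% interval. The causes of these shifts were not tested.

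Depth was not given, so how far it sets the widths in each replicate is unknown. With 2 replicates and members chosen by width, the values describe these 2 libraries. Peaks and hotspots come from the same reads and are not independent of each other.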
